A study of Mus musculus with 24 samples.

Results

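The genes described here are 52 antiviral interferon-stimulated genes, followed in mouse bone marrow-derived macrophages that received lipopolysaccharide (LPS), 4-hydroxyestrone (4-OHE1) or both. They were taken by gene symbol from a list of antiviral effectors, nucleic acid sensors and their regulators, and all 52 were among the 24537 genes of the deposited tables. The cells were grown for 7 days with the growth factor M-CSF from the marrow of 8-week-old female C57BL/6J mice, and all groups share this origin. Control cells received vehicle, LPS cells the bacterial cell wall component that Toll-like receptor 4 senses, 4-OHE1 cells a catechol metabolite of the estrogen estrone, and LPS+4-OHE1 cells both agents. Each treatment lasted 6 h or 24 h, which gave 8 groups of 3 libraries and 24 libraries in all. The doses are uncertain, because the final concentrations written in the protocol (100 ng/mL for LPS, 5 mM for 4-OHE1) equal those of its stocks, which were diluted 1 to 1000. Whether replicate libraries came from different mice or different dishes is not stated, so p-values reflect only library-to-library spread, which may be technical.

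LPS bound to Toll-like receptor 4 makes macrophages secrete interferon beta through the adaptor TRIF and the transcription factor IRF3. Secreted interferon acts on its receptor on the same and neighbouring cells, and the kinases JAK1 and TYK2 then activate the transcription factor complex ISGF3. ISGF3 binds the interferon-stimulated response element (ISRE) in the promoters of antiviral genes, whose products sense viral RNA, degrade or modify it, block translation or hold virus at membranes. Some of these genes can also be switched on by IRF3 or by NF-kB without secreted interferon.

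The promoters of 6 genes are shown because their genes were called higher, not called or fell most with 4-OHE1 under LPS. Oasl1 and Rsad2 ended higher with both agents than with LPS, Isg15 and Ifit1 were not called different at 6 h, and Ifi205 and Slfn1 fell most. Each is the RefSeq window (GRCm38.p6) of 300 bases, from 250 before to 50 after the annotated start, written 5′ to 3′ on the gene's own strand. Capitals mark ISRE letters (GAAA, any 2 bases, then GAAA again, searched on both strands) in Rsad2, Isg15, Ifit1 and Ifi205, and NF-kB motif letters in Oasl1 and Slfn1. Neighbouring matches overlap in Isg15 and in Oasl1.
Oasl1: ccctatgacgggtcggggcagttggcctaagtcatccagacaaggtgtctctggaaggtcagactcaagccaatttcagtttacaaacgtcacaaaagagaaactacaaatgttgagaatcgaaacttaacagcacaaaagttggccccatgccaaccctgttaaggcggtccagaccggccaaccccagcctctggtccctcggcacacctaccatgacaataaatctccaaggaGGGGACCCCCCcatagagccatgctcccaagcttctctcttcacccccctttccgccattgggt
Rsad2: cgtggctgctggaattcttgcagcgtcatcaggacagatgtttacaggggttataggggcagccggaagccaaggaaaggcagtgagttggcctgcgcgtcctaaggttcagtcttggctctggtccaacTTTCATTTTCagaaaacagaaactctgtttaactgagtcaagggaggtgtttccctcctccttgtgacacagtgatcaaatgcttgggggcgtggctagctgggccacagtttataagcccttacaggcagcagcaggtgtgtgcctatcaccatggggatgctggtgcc
Isg15: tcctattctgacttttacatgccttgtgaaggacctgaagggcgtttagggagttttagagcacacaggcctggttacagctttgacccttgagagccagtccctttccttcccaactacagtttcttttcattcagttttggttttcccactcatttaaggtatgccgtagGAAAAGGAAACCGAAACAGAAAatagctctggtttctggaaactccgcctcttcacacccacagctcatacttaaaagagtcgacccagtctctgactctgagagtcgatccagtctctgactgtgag
Ifit1: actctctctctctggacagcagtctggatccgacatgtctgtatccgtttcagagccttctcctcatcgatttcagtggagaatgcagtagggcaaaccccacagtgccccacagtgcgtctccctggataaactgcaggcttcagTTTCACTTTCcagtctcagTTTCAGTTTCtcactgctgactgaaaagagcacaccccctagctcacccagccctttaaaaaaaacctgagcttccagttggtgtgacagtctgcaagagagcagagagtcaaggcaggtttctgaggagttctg
Ifi205: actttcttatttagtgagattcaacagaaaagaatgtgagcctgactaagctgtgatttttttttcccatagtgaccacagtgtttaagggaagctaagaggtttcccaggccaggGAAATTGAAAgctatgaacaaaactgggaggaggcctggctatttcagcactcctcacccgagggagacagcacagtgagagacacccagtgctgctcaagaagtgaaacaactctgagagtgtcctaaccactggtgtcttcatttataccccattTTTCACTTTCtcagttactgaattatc
Slfn1: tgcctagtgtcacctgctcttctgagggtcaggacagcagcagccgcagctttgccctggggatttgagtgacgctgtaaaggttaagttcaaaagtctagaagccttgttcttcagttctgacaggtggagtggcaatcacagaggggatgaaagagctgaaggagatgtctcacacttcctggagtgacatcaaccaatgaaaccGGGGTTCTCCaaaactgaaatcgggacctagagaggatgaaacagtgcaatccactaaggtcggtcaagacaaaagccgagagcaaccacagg
The Oasl1 window is chr5:114922990-114923289 on the plus strand, with 0 ISRE matches and 2 overlapping NF-kB matches, and the Rsad2 window chr12:26456403-26456702 on the minus strand has 1 ISRE match. The Isg15 window chr4:156200769-156201068 (minus strand) has 3 overlapping ISRE matches, and the Ifit1 window chr19:34640639-34640938 (plus strand) has 2. The Ifi205 window chr1:174031706-174032005 (minus strand) also has 2, and the Slfn1 window chr11:83116570-83116869 (plus strand) has 0 ISRE matches and 1 NF-kB match. The Slfn1 window belongs to a start 25 bases from that of the transcript counted in the deposited tables, while the other 5 windows match it. RefSeq windows were at hand for 40 of the 52 genes and not for Dhx58, Zbp1, Oas2, Usp18, Mx1, Mx2, Ifi204, Parp9, Parp14, Ifi27l2a, Rtp4 and Tor3a. The ISRE letters stood in 17 of the 40 windows (42.5%) and in 1131 of 32851 windows of all genes (3.44%). The NF-kB motif stood in 6 of the 40 (15.0%) and in 8.46% of all windows. Of the 33 windows of genes that were lower with both agents than with LPS at 6 h, 13 held the ISRE letters, as did 1 of the 3 windows of genes that were higher and 3 of the 4 windows of genes not called. A match of letters is not a bound site, and no match says only that these letters are not in this window.

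Libraries held 8127155 to 13339193 reads. Levels are in FPKM, reads per kilobase of exon scaled to library size, and a single read on a 2 kb transcript corresponded to between 0.0375 and 0.0615 FPKM. All 7 macrophage markers examined (such as Csf1r, Adgre1 and Cd68) were at 1 FPKM or more in every library, but their levels moved with the treatments. With LPS+4-OHE1 against LPS, 4 were called higher and 2 lower at 6 h, against 42.7% and 25.3% of all genes. At 24 h 2 were higher and 4 lower (median -1.29), against 39.5% and 14.9%. After median-of-ratios scaling between libraries, 1 of the 4 rises and the 2 falls held at 6 h. For 24 h, 1 of the 2 rises and the 4 falls held. Adgre1 averaged 425 FPKM with LPS and 183 FPKM with both at 6 h, and 1576 and 215 FPKM at 24 h, and the part of this shift in the results was not tested. No T, natural killer, B or erythroid marker reached 1 FPKM in any. Of 5 fibroblast markers Col1a1, Col1a2 and Dcn did, with a summed level of 2.04 to 5.37 FPKM over all libraries, and of 4 dendritic cell markers Xcr1 did, with a mean of 0.835 FPKM with LPS and 2.47 FPKM with both at 6 h (1.12 ± 0.19). Of 7 neutrophil markers only S100a8 and Camp reached 1 FPKM, and Ly6g averaged at most 0.0413 FPKM in any group. Their summed level was 1.66 to 10.8 FPKM in the 6 h groups and in the 24 h control and 4-OHE1 libraries, but 47.2 to 64.2 FPKM with LPS and 82.3 to 112 FPKM with LPS+4-OHE1 at 24 h, and its part in the results at 24 h was not tested. In bulk RNA, fewer cells that express a gene and less RNA per cell cannot be told apart. One library stood apart among the antiviral genes. LPS+4-OHE1 replicate 3 at 6 h had the lowest value of its group for 51 of the 52 genes, and they took 3.93%, 3.44% and 2.62% of the reads in genes in replicates 1, 2 and 3 of that group. In the 3 LPS libraries the share was 3.88% to 3.90%. For several genes and counts at 6 h the result is therefore also given without that library.

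LPS raised all 52 genes at both times. Differences are given on the log2(FPKM + 0.5) scale, which understates the change of low genes, from limma fits over all genes with Benjamini-Hochberg adjustment, called at an adjusted p under 0.05. At 6 h the genes called higher were 52 of 52, against 16.1% of all genes tested, with a median difference of 3.87 (range 0.37 to 8.40) beside -0.61 over all genes. None of the 52 was lower, against 68.1% of all genes. With median-of-ratios scaling between libraries the median of all genes was 0.02, and the 52 calls held. Of the 11098 genes tested, 7563 were lower without scaling and 3836 both with and without it. At 24 h the genes called higher were again 52 of 52, against 19.9% of all genes, and none was lower, against 53.5%. The median was 2.37 (range 0.50 to 7.24) beside -0.31 over all genes. Of the 11185 genes tested at 24 h, 5980 were lower without scaling and 3723 both with and without it. All 52 had passed the filter of 1 FPKM in at least 3 libraries of a time, but Ifi205, Ifi44, Mx1, Mx2, Slfn1 and Zbp1 did so at 6 h only through the groups with LPS, as did these and Phf11d at 24 h. Those had to differ by the way they were kept.

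Rsad2 encodes viperin, an enzyme that makes a chain-terminating nucleotide from CTP. On the log2 scale used here, Rsad2 had the largest rise at 6 h. It measured 2.82, 2.92 and 5.10 FPKM in the control libraries and 1332, 1364 and 1342 FPKM with LPS. The groups were far apart, with a log2 difference of 8.40 ± 0.19 (SE; adjusted p = 1.90e-12). Ifi205, a nuclear DNA-binding protein of the PYHIN family, went from 0.0940, 0.118 and 0.211 FPKM, which was 2 to 3 reads per library, to 202, 193 and 202 FPKM. Mx1, whose protein blocks influenza virus but is encoded by a defective allele in most laboratory strains, went from 0.299, 0.205 and 0.446 FPKM to 173, 181 and 172 FPKM. In the authors' deposited log2 fold changes at 6 h, Ifi205 (11.22) and Mx1 (9.83) rose more than Rsad2 (9.24). Zbp1 is a sensor of left-handed nucleic acid that can trigger cell death. On the log2 scale used here it had the largest rise at 24 h (7.24 ± 0.19, adjusted p = 5.10e-12). Its level went from 0.677, 0.660 and 0.278 FPKM to 152, 169 and 143 FPKM. In the authors' deposited fold changes at 24 h, Slfn1 (9.41) and Ifi205 (8.79) rose more than Zbp1 (7.78). Isg15, a ubiquitin-like protein joined to other proteins, went from 5.28, 8.84 and 9.16 FPKM to 354, 381 and 309 FPKM at 24 h. The smallest rise at 6 h was that of Ifi27l2a, a small membrane protein, at 55.5, 41.3 and 51.4 FPKM in control and 72.7, 61.1 and 57.8 FPKM with LPS (0.37 ± 0.14, adjusted p = 0.0297). It was no longer called without control replicate 2 (0.25, adjusted p = 0.134) or without LPS replicate 1 (0.27, adjusted p = 0.120).

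**Figure D1:**
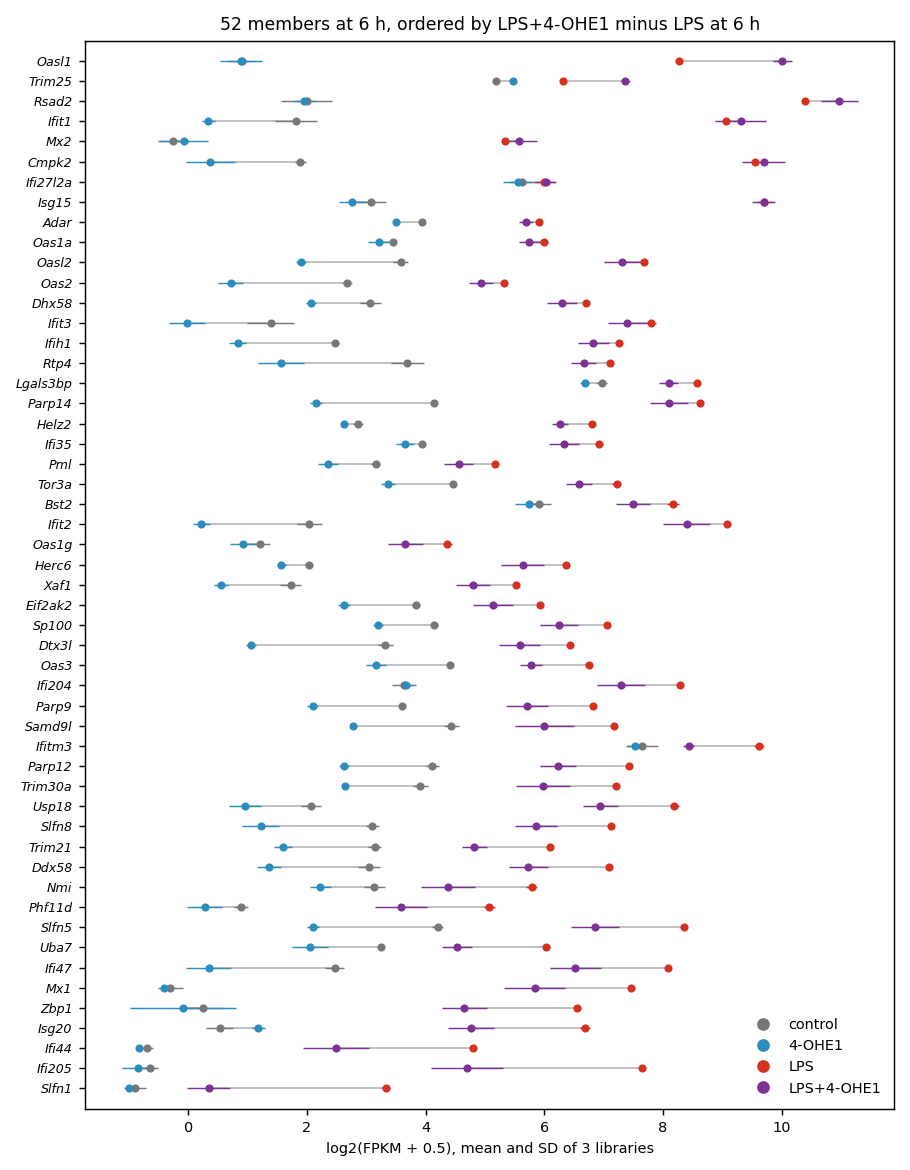
Mean and SD over 3 libraries of log2(FPKM + 0.5) in the 4 groups at 6 h for the 52 genes, ordered by the difference between LPS+4-OHE1 (purple) and LPS (red). Red lies to the right of grey (control) for all 52, and blue (4-OHE1) lies to the left of grey for most.

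4-OHE1 alone lowered most of the set below its resting level. At 6 h 36 of the 52 genes fell, against 44.0% of all genes tested, and 2 rose, Trim25 and Isg20, against 20.9%. The median difference was -0.97 (range -2.26 to 0.65) beside -0.21 over all genes, and with median-of-ratios scaling 30 of the 36 falls and both rises held. Of all 11098 genes tested, 4885 fell without scaling and 3516 both with and without it. At 24 h 42 fell, against 23.1% of all genes, and 2 rose, Ifitm3 and Isg20, against 29.9%, with a median of -0.66 beside 0.05 over all genes. Both counts at 24 h were the same with scaling. In all, 32 genes fell at both times, 4 fell at 6 h only, and 10 fell at 24 h but were not called at 6 h. This pattern of calls does not test the difference between times, and its shares over all genes were not computed.

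Dtx3l, a ubiquitin ligase that pairs with Parp9, showed the largest fall with 4-OHE1 at 6 h. It measured 8.69, 9.41 and 10.5 FPKM in control and 1.44, 1.64 and 1.67 FPKM with 4-OHE1. The libraries did not overlap, and the log2 difference was -2.26 ± 0.14 (adjusted p = 3.36e-08). Rtp4, a chaperone with broad antiviral activity, fell from 10.7, 11.5 and 15.6 FPKM to 2.94, 2.98 and 1.68 FPKM. At 24 h its fall was the largest of the set on that scale, from 12.2, 16.3 and 17.1 FPKM to 1.84, 2.08 and 2.32 FPKM (-2.59 ± 0.11, adjusted p = 4.83e-09). In the authors' deposited log2 fold changes at 24 h some lower genes fell more than Rtp4 (-2.92), among them Ifit3 (-3.80) and Ifit1 (-3.30). Ifi47, an interferon-inducible GTPase, fell at 6 h from 4.51, 5.73 and 4.90 FPKM to 0.573, 1.21 and 0.612 FPKM. In the authors' deposited fold changes at 6 h its fall (-2.45) was larger than that of Dtx3l (-2.36).

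The IFIT genes, whose proteins bind viral RNA with foreign ends, all fell with 4-OHE1 at both times. Ifit1 measured 2.64, 2.49 and 4.19 FPKM in control and 0.666, 0.794 and 0.841 FPKM with 4-OHE1 at 6 h. The 24 h values were 2.33, 4.63 and 4.37 FPKM against 0.199, 0.341 and 0.643 FPKM. Its log2 differences were -1.48 ± 0.20 and -2.24 ± 0.21 at the respective times. Oasl2, an OAS-like protein, measured 11.2, 14.8 and 14.2 FPKM in control and 2.46, 2.87 and 2.79 FPKM with 4-OHE1 at 24 h, a fall of 2.11 on the log2 scale. Ifi27l2a at 24 h measured 49.4, 51.8 and 66.3 FPKM in control and 8.00, 14.5 and 11.7 FPKM with 4-OHE1 (-2.27 ± 0.19). At 6 h the same gene differed by -0.08 ± 0.14 (adjusted p = 0.670), with overlapping groups.

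The genes called higher with 4-OHE1 alone were Trim25, Isg20 and Ifitm3. Trim25, the ubiquitin and ISG15 ligase that activates RIG-I, measured 35.1, 36.1 and 36.1 FPKM in control and 42.7, 45.5 and 43.7 FPKM with 4-OHE1 at 6 h (0.29 ± 0.05, adjusted p = 2.57e-04). Isg20, an exonuclease that degrades single-stranded RNA, measured 1.21, 0.873 and 0.777 FPKM in control and 1.89, 1.84 and 1.58 FPKM with 4-OHE1 (0.65 ± 0.16). That rise was not called from the recovered reads with voom (1.03, adjusted p = 0.131). The authors' deposited DESeq2 comparison did not call Isg20 at 6 h (0.91, adjusted p = 0.14) or at 24 h (0.98, adjusted p = 0.117). Ifitm3, which holds viruses in endosomes, measured 245, 241 and 275 FPKM in control and 387, 388 and 353 FPKM with 4-OHE1 at 24 h (0.57 ± 0.09, adjusted p = 1.74e-04).

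With LPS present, 4-OHE1 again left most of the set lower, but it did not act on all genes alike. At 6 h 43 of the 52 genes were lower with LPS+4-OHE1 than with LPS, against 25.3% of all genes tested, and 3 were higher (Oasl1, Trim25 and Rsad2), against 42.7%. The median difference was -0.72 (range -2.99 to 1.75) beside 0.18 over all genes. Without LPS+4-OHE1 replicate 3 the counts were 41 lower and 4 higher, the fourth being Ifit1, and the shares of all genes were not computed for that fit. With median-of-ratios scaling the 43 held and Rsad2 was not called (0.34, adjusted p = 0.134). Of all 11098 genes tested, 4736 were higher without scaling and 3541 both with and without it. The level kept with both agents, as a percentage of the LPS mean, ran from 8.30% for Slfn1 to 338% for Oasl1, with a median of 61.0%. At 24 h 40 genes were lower, against 14.9% of all genes, and the same 3 were higher, against 39.5%, with a median of -0.56 beside 0.17 over all genes. With scaling the 40 held and Rsad2 was the 1 gene still called higher. Of all 11185 genes tested, 4420 were higher without scaling and 2589 both with and without it. The level kept at 24 h ran from 9.01% (Slfn1) to 215% (Rsad2), with a median of 67.2%. In all, 38 genes were lower at both times, 5 at 6 h only, and 2 at 24 h only, while 4 were called at neither. This pattern of calls does not test the difference between times, and its shares over all genes were not computed.

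**Figure D2:**
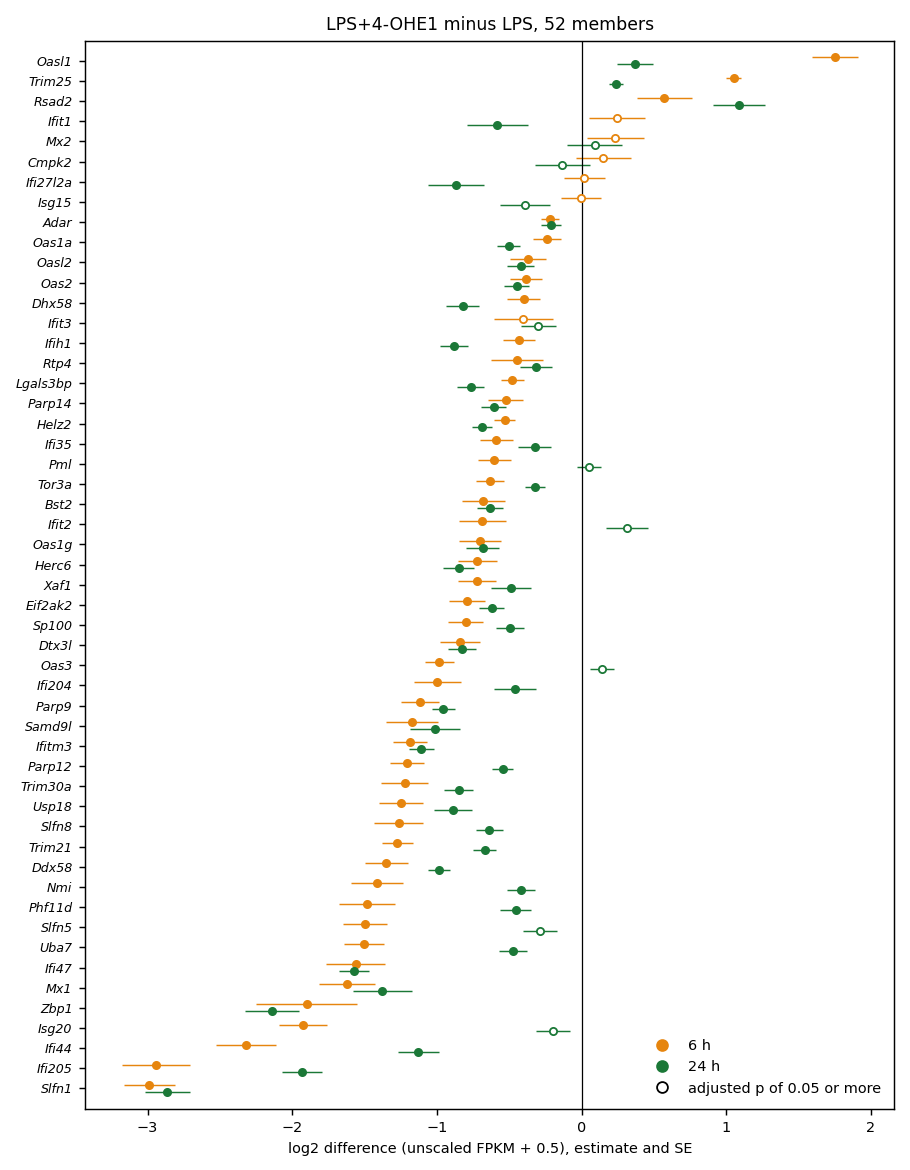
Log2 difference between LPS+4-OHE1 and LPS for the 52 genes at 6 h (orange) and 24 h (green), with its SE, ordered by the 6 h value. Filled points passed an adjusted p of 0.05, and the points run from Oasl1 at 1.75 to Slfn1 at -2.99 at 6 h.

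Oasl1, which in mice restrains translation of Irf7 mRNA, was the gene that LPS+4-OHE1 raised most above LPS. At 6 h it measured 306, 310 and 305 FPKM with LPS and 1043, 1148 and 918 FPKM with both agents, and 1.39, 1.08 and 1.70 FPKM in control. All 3 libraries with both agents stood above every LPS library, a log2 difference of 1.75 ± 0.16 (adjusted p = 7.73e-07), and 1.83 without LPS+4-OHE1 replicate 3. At 24 h it measured 50.7, 59.1 and 53.1 FPKM with LPS and 67.2, 71.8 and 71.5 FPKM with both (0.37 ± 0.12, adjusted p = 0.0250), and with scaling that difference was 0.16 and not called (adjusted p = 0.293), nor was it called without LPS replicate 1 or 3 or without LPS+4-OHE1 replicate 2 or 3 (adjusted p up to 0.0851). Its neighbour Oasl2 went the other way at 6 h, at 207, 204 and 205 FPKM with LPS and 179, 179 and 124 FPKM with both (-0.37 ± 0.12, adjusted p = 0.0173). The remaining OAS genes make or resemble the synthetases whose product activates RNase L, and Oas1a, Oas1g, Oas2 and Oas3 were all lower at 6 h. Oas3 measured 105, 108 and 110 FPKM with LPS and 60.1, 57.2 and 46.6 FPKM with both at 6 h. By 24 h the LPS libraries stood at 89.0, 92.9 and 94.0 FPKM and those with both at 103, 106 and 96.4 FPKM, and Oas3 was not called (0.14 ± 0.08, 95% interval -0.04 to 0.32). Oas1a measured 66.8, 60.6 and 61.9 FPKM with LPS and 56.0, 58.1 and 46.3 FPKM with both at 6 h (-0.24 ± 0.10, adjusted p = 0.0421), a call lost when any of 8 single libraries of the 12 was left out, up to an adjusted p of 0.177 without LPS+4-OHE1 replicate 3. Oas1g measured 21.0, 20.5 and 18.9 FPKM with LPS and 13.5, 13.9 and 9.54 FPKM with both. The Oas1 genes are near-identical copies, so reads could have been split between them and both values are uncertain.

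Rsad2 and its neighbour Cmpk2, a mitochondrial nucleotide kinase, were among the most abundant of the set with LPS at 6 h and neither fell. Rsad2 measured 2456, 2041 and 1597 FPKM with both agents, against the LPS values above, with all 3 libraries higher (0.57 ± 0.19, adjusted p = 0.0181). That call was lost without LPS+4-OHE1 replicate 1 (0.42, adjusted p = 0.0775), while without replicate 3 the difference was 0.73. At 24 h Rsad2 measured 25.4, 26.8 and 33.4 FPKM with LPS and 51.0, 62.8 and 69.8 FPKM with both (1.09 ± 0.18, adjusted p = 2.75e-04). Cmpk2 measured 754, 755 and 734 FPKM with LPS and 1017, 894 and 626 FPKM with both at 6 h. Those groups overlapped only through LPS+4-OHE1 replicate 3, and the difference of 0.15 ± 0.19 had a 95% interval of -0.27 to 0.56. Of the other enzymes acting on nucleic acids, Adar, which edits adenosine in double-stranded RNA, fell little (-0.22 ± 0.06 at 6 h), and Samd9l, a translation inhibitor, fell by 1.17. Isg20 fell from 110, 99.9 and 98.7 FPKM with LPS to 30.7, 31.6 and 19.5 FPKM with both at 6 h (-1.93 ± 0.16, adjusted p = 4.10e-07). At 24 h it was not called, at 20.0, 19.7 and 17.2 FPKM against 15.6, 17.7 and 16.0 FPKM (-0.20 ± 0.12), but was with scaling (-0.41, adjusted p = 0.0114).

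Isg15 and the enzymes that attach and remove it did not move together. Isg15 measured 914, 798 and 790 FPKM with LPS and 881, 905 and 712 FPKM with both at 6 h. The groups overlapped, and the difference of -0.01 ± 0.14 had a 95% interval of -0.31 to 0.29. Later, at 24 h, Isg15 measured 354, 381 and 309 FPKM with LPS and 233, 276 and 287 FPKM with both (-0.39 ± 0.17, adjusted p = 0.0765), and with scaling it was called lower (-0.60, adjusted p = 0.0121). Uba7, which activates ISG15 for attachment, fell from 65.1, 62.8 and 67.5 FPKM to 25.0, 25.1 and 18.4 FPKM at 6 h. Usp18, which removes ISG15 and blocks the interferon receptor, fell by 1.25, and Herc6, the main mouse ISG15 ligase, fell by 0.72. Trim25 rose from 78.5, 80.9 and 78.0 FPKM with LPS to 168, 170 and 155 FPKM with both at 6 h (1.05 ± 0.05, adjusted p = 1.80e-09). Its 24 h values were 50.1, 51.2 and 51.1 FPKM against 59.8, 61.7 and 58.0 FPKM (0.23 ± 0.05), a difference of 0.03 with scaling (adjusted p = 0.682).

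The IFIT genes all had differences above the median of the set at 6 h. Ifit1 measured 542, 539 and 522 FPKM with LPS and 863, 618 and 475 FPKM with both. Those libraries overlapped, with a difference of 0.24 ± 0.20 (95% interval -0.18 to 0.67), and 0.45 without LPS+4-OHE1 replicate 3 (adjusted p = 0.0475). Ifit2 was lower, at 543, 547 and 538 FPKM with LPS and 429, 357 and 249 FPKM with both (-0.69 ± 0.17, adjusted p = 0.00272). Ifit3 was not called (-0.40 ± 0.20, adjusted p = 0.0981), though called with scaling (-0.63, adjusted p = 0.0161). Ifit3 has a near-identical copy in the mouse genome, so its value is uncertain. At 24 h Ifit1 was lower, at 88.4, 82.8 and 107 FPKM with LPS and 62.2, 60.9 and 61.4 FPKM with both (-0.58 ± 0.21, adjusted p = 0.0363). That call was lost without LPS replicate 1 or 3 or without any 1 of the 3 libraries with both agents (adjusted p up to 0.118).

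**Figure D3:**
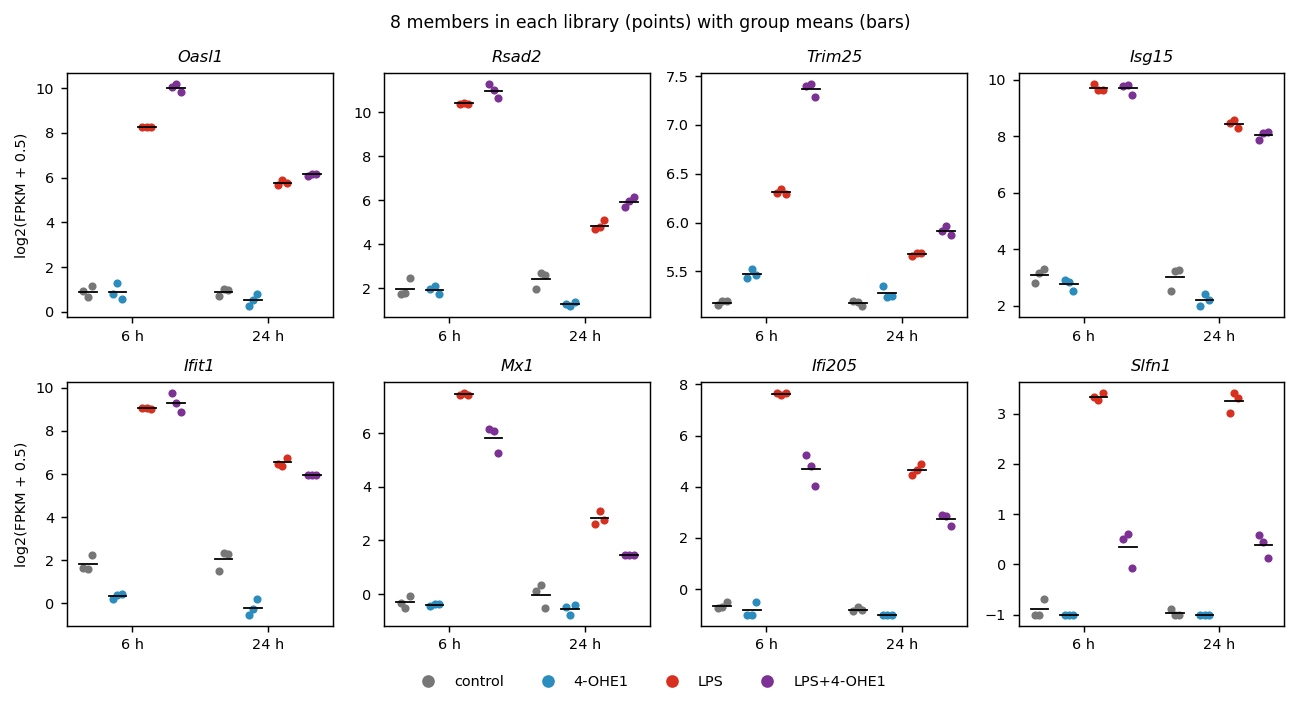
Log2(FPKM + 0.5) in each library (points, with group means as bars) of 8 genes, for control (grey), 4-OHE1 (blue), LPS (red) and LPS+4-OHE1 (purple) at 6 h and 24 h, with a separate y axis for each gene. In Oasl1, Rsad2 and Trim25 the purple points lie above the red ones at both times, and in Mx1, Ifi205 and Slfn1 they lie below.

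The sensors of viral nucleic acid all fell at both times. Ddx58, which encodes the RNA sensor RIG-I, fell from 137, 135 and 133 FPKM with LPS to 63.7, 56.1 and 40.8 FPKM with both at 6 h (-1.35 ± 0.15, adjusted p = 4.59e-06). Ifih1, which encodes MDA5, the sensor of long double-stranded RNA, fell less, from 152 FPKM in all 3 libraries to 130, 120 and 91.9 FPKM (-0.43 ± 0.11, adjusted p = 0.00423). Dhx58, their regulator LGP2, fell by 0.40, and Eif2ak2, the kinase PKR that stops translation, fell by 0.79. Zbp1 fell from 97.7, 90.5 and 92.1 FPKM to 29.2, 28.3 and 18.0 FPKM at 6 h, and at 24 h from 152, 169 and 143 FPKM to 38.1, 34.8 and 31.3 FPKM (-2.14 ± 0.19, adjusted p = 1.14e-06). The cytosolic and nuclear DNA sensors of the PYHIN family fell too. Ifi205 went from 202, 193 and 202 FPKM to 37.2, 27.5 and 16.0 FPKM at 6 h (-2.94 ± 0.24, adjusted p = 2.24e-07, and -2.62 without LPS+4-OHE1 replicate 3). By 24 h it went from 21.6, 24.8 and 29.1 FPKM to 7.01, 6.68 and 5.02 FPKM. Ifi204, a close relative whose reads may partly be shared, fell by 1.00 at 6 h.

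The Schlafen genes held the largest fall. Slfn1, which restrains T cell growth in mice, measured 9.53, 9.11 and 10.1 FPKM with LPS and 0.920, 1.01 and 0.455 FPKM with both at 6 h. Values at 24 h were 7.54, 10.1 and 9.50 FPKM with LPS and 0.992, 0.869 and 0.586 FPKM with both. The groups stood well apart at both times, with differences of -2.99 ± 0.18 and -2.86 ± 0.16, although the libraries with both agents held 9 to 20 reads each. Slfn1 passed the filter only through the LPS libraries, so it had to differ, and its call is no support for a difference. Slfn5, of the same cluster, fell from 318, 325 and 333 FPKM with LPS to 148, 121 and 84.6 FPKM with both at 6 h, and Slfn8 fell by 1.27. Slfn8 alone of the pair was lower at 24 h, where Slfn5 differed by -0.29 ± 0.12 (adjusted p = 0.0552) and was called with scaling.

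The Mx GTPases and the membrane proteins Bst2 and Ifitm3 gave a mixed result. Mx1 fell from 173, 181 and 172 FPKM with LPS to 71.9, 67.1 and 37.5 FPKM with both at 6 h (-1.62 ± 0.19, adjusted p = 9.54e-06), whereas its neighbour Mx2 measured 41.0, 40.4 and 39.0 FPKM against 56.18, 49.98 and 37.51 FPKM. The Mx2 groups overlapped (0.23 ± 0.20, 95% interval -0.20 to 0.67). Bst2, or tetherin, which ties budding virus to the cell, fell from 313, 280 and 273 FPKM to 203, 201 and 143 FPKM. Ifitm3 fell from 841, 745 and 773 FPKM to 358, 357 and 321 FPKM at 6 h (-1.19 ± 0.12, adjusted p = 1.55e-06). At 24 h it fell from 2009, 1822 and 1678 FPKM to 926, 875 and 756 FPKM (-1.11 ± 0.09).

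The ADP-ribosyltransferases Parp9, Parp12 and Parp14 and the Parp9 partner Dtx3l were all lower at both times. At 6 h their differences ran from -0.52 ± 0.12 for Parp14 to -1.21 ± 0.12 for Parp12. Of the genes of nuclear bodies and TRIM proteins, Trim21, an antibody receptor in the cytosol, fell by 1.27, Trim30a by 1.22, Sp100 by 0.80 and Pml, the scaffold of nuclear bodies, by 0.60 at 6 h. At 24 h Pml was not called (0.05 ± 0.08, 95% interval -0.13 to 0.23), while the others of that group were lower. Trim30a belongs to a family of similar genes, so its level is uncertain.

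Among the remaining 11 genes, 10 were lower at 6 h, against 25.3% of all genes. Ifi44, a cytoplasmic protein with antiviral activity, fell from 26.8, 27.6 and 27.9 FPKM with LPS to 7.81, 5.01 and 3.33 FPKM with both (-2.32 ± 0.21, adjusted p = 6.54e-07), and -2.05 without LPS+4-OHE1 replicate 3. Ifi47 fell from 276, 273 and 264 FPKM to 118, 98.6 and 65.5 FPKM. Phf11d, one of a family of similar genes, fell by 1.49 and Nmi, a partner of Ifi35, by 1.41. Smaller falls at 6 h were those of Xaf1 (a promoter of cell death, -0.72), Tor3a (a torsin ATPase, -0.64), Ifi35 (-0.59), Helz2 (a helicase coactivator, -0.53) and Rtp4 (-0.45). The Rtp4 call was lost without any 1 of the 3 LPS libraries or without LPS+4-OHE1 replicate 2 or 3, with the highest adjusted p, 0.157, without replicate 3 (-0.33). Lgals3bp, a secreted glycoprotein, fell from 378, 389 and 377 FPKM to 284, 299 and 241 FPKM (-0.48 ± 0.08, adjusted p = 1.44e-04). Ifi27l2a was not called at 6 h, at 58.9, 74.3 and 61.0 FPKM with both (0.02 ± 0.14, 95% interval -0.29 to 0.33). At 24 h all 11 were lower, against 14.9% of all genes, though Rtp4 and Ifi35 lost the call without 5 and 3 single libraries in turn. Ifi27l2a went from 104, 123 and 82.5 FPKM with LPS to 62.2, 54.3 and 51.2 FPKM with both at 24 h (-0.87 ± 0.19, adjusted p = 0.00241).

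Genes that lie side by side did not always share a direction. Of 8 clusters with gaps of at most 500 kb, which held 21 of the genes, 4 were lower throughout at 6 h, namely the Schlafen genes on chromosome 11, Parp14, Dtx3l and Parp9 on chromosome 16, Ifi204 and Ifi205 on chromosome 1, and Oas2, Oas3, Oas1g and Oas1a on chromosome 5. In the cluster on chromosome 19, Ifit2 was lower, and Ifit1 and Ifit3 were not called. In the cluster on chromosome 5 from 114896934 to 114937911 (mm10), Oasl2 was lower and Oasl1 higher. On chromosome 16 from 97447037 to 97560899, Mx1 was lower and Mx2 was not called. On chromosome 12 from 26442743 to 26479837, Rsad2 was higher and Cmpk2 was not called. Of all genes tested, 25.3% were lower in this comparison at 6 h. Differences between neighbours were not tested, and whether reads were counted by strand is not given in the sources used here.

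LPS still raised every gene of the set in the presence of 4-OHE1. Compared with 4-OHE1 alone, LPS+4-OHE1 was higher in 52 of 52 genes at 6 h, against 10.1% of all genes tested, with a median of 3.62 beside -0.28 over all genes. None was lower, against 50.2% of all genes (5576 of 11098, with 2016 of them also lower with scaling). The 24 h comparison gave 52 of 52 higher, against 12%, with a median of 2.54 beside -0.22. None was lower at 24 h, against 44.3% (4960 of 11185, with 2406 of them also lower with scaling). The genes that passed the filter only through the groups with LPS, 6 at 6 h and 7 at 24 h, had to be higher here too. On the log2(FPKM + 0.5) scale Cmpk2 rose most at 6 h, from 0.827, 1.20 and 0.464 FPKM with 4-OHE1 alone, by 9.32 ± 0.19. Ifit1 rose most on that scale at 24 h, by 6.14 ± 0.21.

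The interaction asks whether the LPS response on the log2 scale differed with 4-OHE1. At 6 h it was positive (a larger response with 4-OHE1) in 16 genes, against 45.5% of all genes tested, and negative in 10, against 15.2%. The median was 0.26 beside 0.34 over all genes, and with scaling 11 of the 16 and all 10 held, while the total called negative was then 18. Of all 11098 genes tested, 5050 were positive without scaling and 2770 both with and without it. Without LPS+4-OHE1 replicate 3 the positive calls were 29 and the negative 10, so the positive count rests on that library. The share of all genes was not computed for that fit. The largest positive values were those of Oasl1 (1.77 ± 0.22), Ifit1 (1.73 ± 0.28) and Rtp4 (1.68 ± 0.25). For Ifit1 and Rtp4 the level with 4-OHE1 alone was below control, while for Oasl1 it differed from control by -0.02 ± 0.16. The Ifit1 call was lost with voom (1.76, adjusted p = 0.0560).

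The largest negative interactions at 6 h were those of Slfn1 (-2.88 ± 0.25), Ifi205 (-2.75 ± 0.33) and Isg20 (-2.58 ± 0.23). Slfn1, Ifi205, Ifi44, Zbp1 and Mx1, which are 5 of the 10 negative genes, were below 1 FPKM on average in both groups without LPS. Their interactions therefore rest on levels near the 0.5 FPKM added before the logarithm, and the Ifi44 call was lost with voom (-2.20, adjusted p = 0.101). Isg20 was called higher with 4-OHE1 alone than in control, a call absent with voom and in the authors' comparison, but lower with both agents than with LPS. At 24 h the interaction was positive in 15 genes, against 27.6% of all genes, and negative in 10, against 15.7%, with a median of 0.01 beside 0.10 over all genes. Rtp4 (2.28 ± 0.16), Rsad2 (2.22 ± 0.26) and Ifit2 (2.16 ± 0.21) had the largest positive values then. Ifit2 measured 16.7, 18.7 and 22.7 FPKM with LPS and 22.2, 23.9 and 25.9 FPKM with both at 24 h, and it was 0.620, 0.912 and 0.602 FPKM with 4-OHE1 alone against 3.10, 4.56 and 3.99 FPKM in control. Slfn1 (-2.83 ± 0.22), Ifi205 (-1.74 ± 0.19) and Ifitm3 (-1.68 ± 0.12) had the largest negative ones. Without LPS at 24 h, Slfn1 held at most 1 read and Ifi205 at most 2 reads per library. Their 24 h values therefore also rest on levels near the added 0.5 FPKM. Ifitm3 measured 203, 187 and 164 FPKM with 4-OHE1 at 6 h, well above the added 0.5, and its interaction then was -1.07 ± 0.16 (adjusted p = 1.28e-04).

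**Figure D4:**
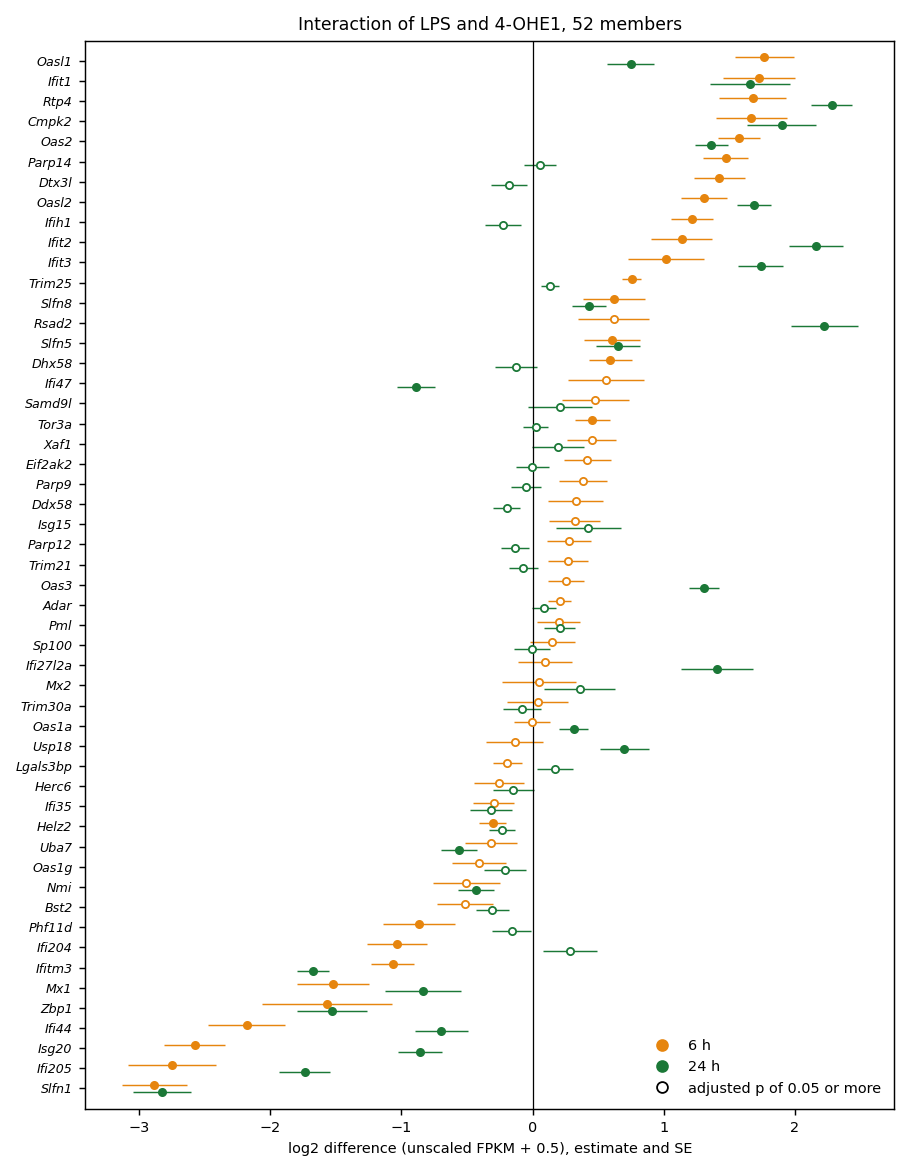
Interaction of LPS and 4-OHE1 on the log2 scale for the 52 genes at 6 h (orange) and 24 h (green), with its SE, ordered by the 6 h value. Points to the right of 0 mark a larger LPS response with 4-OHE1, and the values at 6 h run from -2.88 (Slfn1) to 1.77 (Oasl1).

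The LPS response of most of these genes had declined by 24 h. In a fit of all 24 libraries, which left out Sp100 because the tables list different transcripts for it at the 2 times, the LPS difference at 24 h was smaller than at 6 h in 41 of 51 genes, against 16.9% of all genes tested. It was larger in 3, against 41.7% (4681 of 11220 genes, with 2678 of them also larger with scaling). The median change was -1.44 beside 0.27 over all genes. Rsad2 declined most, from 1346 ± 16.7 FPKM (SD, n = 3) with LPS at 6 h to 28.5 ± 4.30 FPKM at 24 h, a change in the LPS difference of -5.98 ± 0.28 (adjusted p = 8.31e-13). Cmpk2 went from 748 ± 11.6 to 17.5 ± 0.0644 FPKM (-5.71 ± 0.29) and Mx1 from 175 ± 4.94 to 6.68 ± 1.22 FPKM (-4.91 ± 0.29). The 3 genes whose LPS difference grew were Ifitm3 (0.88 ± 0.15), Bst2 (0.64 ± 0.19) and Lgals3bp (0.56 ± 0.13), and of these Ifitm3 alone was called with scaling.

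The difference between LPS+4-OHE1 and LPS also changed with time. It was more positive, or less negative, at 24 h in 14 of 51 genes, against 25.5% of all genes, and more negative or less positive in 6, against 25.7%. The upward share was close to that of all genes. Isg20 (1.73 ± 0.21, adjusted p = 8.61e-07), Slfn5 (1.21 ± 0.20) and Ifi44 (1.19 ± 0.26) had the largest upward changes. The level with both agents was lower at 24 h than at 6 h for each, at means of 27.2 and 16.4 FPKM for Isg20, 118 and 66.4 FPKM for Slfn5 and 5.38 and 4.18 FPKM for Ifi44, and the LPS level fell further. Oasl1 (-1.38 ± 0.22, adjusted p = 1.81e-05), Ifi27l2a (-0.89 ± 0.26) and Ifit1 (-0.83 ± 0.31) went the other way. Without LPS+4-OHE1 replicate 1 at 6 h only 3 genes remained in the lower direction, and Ifit1 was then not called (-0.60, adjusted p = 0.104). Leaving out any of 6 other libraries, LPS replicate 2 or 3 at 6 h, LPS replicate 3 at 24 h or any 1 with both agents at 24 h, also ended the Ifit1 call.

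**Figure D5:**
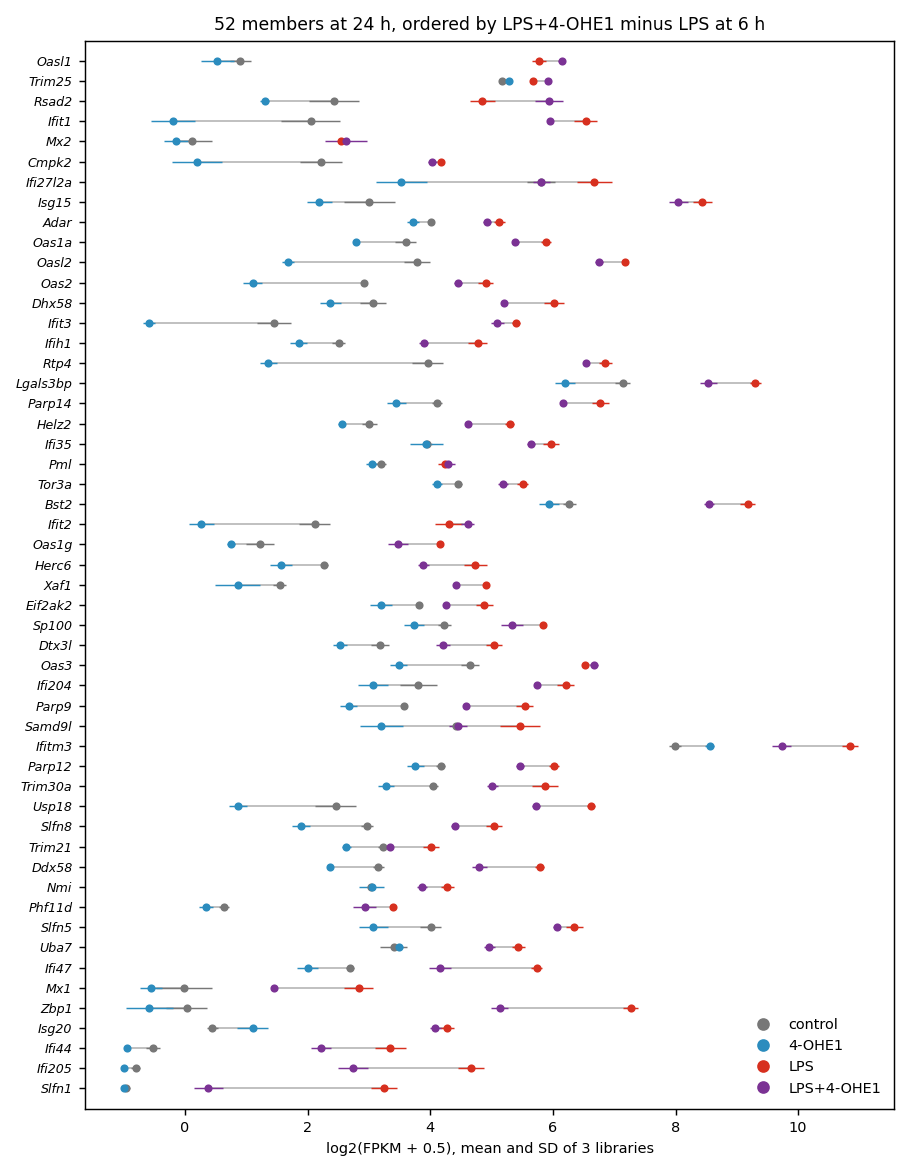
Mean and SD over 3 libraries of log2(FPKM + 0.5) in the 4 groups at 24 h for the 52 genes, in the order used for 6 h. LPS (red) lies to the right of control (grey) for all 52, and Zbp1 shows the widest gap between them at 7.24. Zbp1 passed the filter only through the groups with LPS.

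The genes that carry the interferon signal were measured beside the set. Of 24 pathway genes, 17 rose and 5 fell with LPS at 6 h, against 16.1% and 68.1% of all genes. With median-of-ratios scaling the 17 rises held, but of the 5 falls 1 held and 1 was called in the opposite direction. With both agents against LPS 3 were higher and 15 lower, against 42.7% and 25.3% of all genes, and 2 and 15 of these held with scaling. Ifnb1, interferon beta itself, had 0 reads in all control and 4-OHE1 libraries at 6 h. It measured 2.04, 1.88 and 2.81 FPKM with LPS and 2.10, 2.86 and 1.71 FPKM with both, overlapping groups with a difference of -0.02 ± 0.18 (95% interval -0.40 to 0.37). Ifnar1, a chain of its receptor, measured 42.6, 41.7 and 42.6 FPKM with LPS and 8.30, 7.98 and 9.04 FPKM with both at 6 h (-2.26 ± 0.06, adjusted p = 1.96e-11), and 11.8 ± 0.658 FPKM with 4-OHE1 alone against 27.4 ± 0.512 FPKM in control. At 24 h Ifnar1 with 4-OHE1 alone was 25.4 ± 1.06 FPKM against 24.8 ± 0.824 FPKM in control. With LPS it was 49.0 ± 1.33 FPKM at 24 h and with both 25.3 ± 0.648 FPKM (-0.94 ± 0.05, adjusted p = 1.64e-08).

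Of 8 genes from the interferon receptor to ISGF3, 5 were lower and 1 higher with both agents than with LPS at 6 h. Their median was -0.91, and the shares of all genes were 25.3% lower and 42.7% higher. The 5 falls held with scaling and the rise did not. Stat2, which acts below the receptor, measured 105, 109 and 109 FPKM with LPS and 119, 120 and 102 FPKM with both at 6 h. Its groups overlapped only through LPS+4-OHE1 replicate 3 (0.07 ± 0.07, 95% interval -0.08 to 0.23). Irf9 was higher, at 37.0, 37.8 and 36.4 FPKM with LPS and 49.0, 51.1 and 41.2 FPKM with both (0.34 ± 0.08), a call lost with scaling (0.11, adjusted p = 0.357). With 4-OHE1 alone at 6 h both were below control, by 0.65 for Stat2 and 0.97 for Irf9. Irf7, the factor that amplifies interferon production, fell from 377, 374 and 355 FPKM to 183, 184 and 121 FPKM at 6 h.

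The antiviral genes kept more of their LPS level than neighbouring programs did, by median. For the 12 tested of 14 guanylate-binding and immunity GTPases, the LPS+4-OHE1 against LPS difference at 6 h had a median of -2.21, with 11 lower, against 25.3% of all genes. For 21 inflammatory cytokines and chemokines it had a median of -3.80, with all 21 lower. The median of the 52 antiviral genes was -0.72. The interaction at 6 h was negative in all 21 inflammatory genes (median -4.65) and in 9 of the 12 GTPases (median -1.44), against 15.2% of all genes. These comparisons share their libraries, and the difference between the lists was not tested.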

How the data were processed

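Messenger RNA of 24 libraries (8 groups of 3) was sequenced. The submitters' processing notes name STAR, HOMER, DESeq2, edgeR and build mm10, and tool versions are not given in the sources used here. The authors' FPKM values, per the file headers, come from HOMER: reads on the exons of a single transcript of each gene were divided by its length and by library size, with no further scaling. The tables of the 2 times use different transcripts for 1114 of 24537 genes. The authors' deposited tables of LPS or 4-OHE1 against control also give log2 fold changes. The adjusted p-values of those deposited tables served, like the fold changes, only as an alternative. FPKM values converted to whole reads within a tolerance of 0.1 read. The headers give the depth of all but the LPS+4-OHE1 libraries, whose depth was derived from the size of 1 read.

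Log2(FPKM + 0.5) was fitted with limma 3.58.1 in R 4.3.3 (empirical Bayes with trend), keeping genes that reached 1 FPKM in 3 or more libraries of a time. One fit covered the 12 libraries of each time, and one all 24 for differences between times. Benjamini-Hochberg adjustment ran over all genes tested, with a threshold of 0.05, and intervals are at 95%. The fits were tried on data simulated from the control reads. Interactions of 2 times were recovered in 82.1% of changed genes at 6 h and 76.1% at 24 h. For interactions of 1.5 times the shares were 26.9% and 17.9%, so small interactions can be missed. The simulation had no shift between groups and the same replicate spread in all groups, unlike these data. Figures and motif searches used Python 3.11.15.

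The 52 members, the other lists and the tests were chosen with earlier results of these data known. By rule, values in every library were given for the 3 largest called rises and falls of a comparison (groups not overlapping, higher mean 5 FPKM or more), the 2 most abundant uncalled genes, the 3 largest interactions or time differences each way, and 8 benchmarks (Ifit1, Isg15, Rsad2, Mx1, Oas1a, Oas1g, Ifih1, Lgals3bp). Other members were named after their values were seen. Alternatives were pseudocounts of 0.1 and 1, no filter, a filter of 5 FPKM, median-of-ratios scaling, robust empirical Bayes, a replicate block, the authors' deposited comparison and each library left out. Voom on the recovered reads with median-of-ratios library sizes was chosen after seeing the data, in place of a version with TMM scaling that was not run.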

Additional observations from a re-analysis of the deposited data

Results flagged for a closer look

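The LPS response was tested for a difference between 6 h and 24 h, and it differed for 44 of 51 genes, being larger at 24 h in 3, against 41.7% of all genes, and smaller in 41, against 16.9%. The largest such differences on the log2 scale were 0.88 for Ifitm3, 0.64 for Bst2 and 0.56 for Lgals3bp in the upward direction, and -5.98 for Rsad2, -5.71 for Cmpk2 and -4.91 for Mx1 in the downward direction.

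The difference between LPS+4-OHE1 and LPS was tested in the same way, and it was higher at 24 h in 14 of 51 genes, against 25.5% of all genes, and lower in 6, against 25.7%. The upward share is close to that of all genes. The largest values were 1.73 for Isg20, 1.21 for Slfn5 and 1.19 for Ifi44, and -1.38 for Oasl1, -0.89 for Ifi27l2a and -0.83 for Ifit1. All of these come from the same LPS+4-OHE1 libraries at 6 h, of which replicate 3 was low for 51 of the 52 genes.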

How the results depend on the processing

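The voom alternative was chosen after seeing the data, and the planned version with TMM scaling was not run. Of 536 counts recomputed under the alternatives, 10 moved by more than 1.5 times. With 4-OHE1 against control the 2 genes higher became 1 with voom (6 h) and 1 in the authors' deposited tables (6 h and 24 h). In each case Isg20 was the gene lost. For the interaction at 6 h the 16 positive genes became 9 with voom and the 10 negative became 18 with median-of-ratios scaling. For LPS+4-OHE1 against LPS at 24 h the 3 higher became 1 with scaling, and for the LPS response at 24 h against 6 h the 3 larger became 1 with scaling and 1 with voom. Leaving out each library in turn gave 14 to 29 positive interactions at 6 h, the 29 without LPS+4-OHE1 replicate 3. It gave 3 to 9 genes whose LPS+4-OHE1 against LPS difference was lower at 24 h than at 6 h, the 3 without LPS+4-OHE1 replicate 1 at 6 h. The causes were not tested, and shares of all genes were not computed for fits with a library left out. Of 13857 single values, 235 lost a call, 144 gained one and 2 changed sign, both for the Ifi44 interaction at 24 h (-0.70 as reported), which was 0.14 with a pseudocount of 0.1 (adjusted p = 0.753) and 1.46 with voom (adjusted p = 0.152). With the replicate block, 42 genes were lower with LPS+4-OHE1 than with LPS at 6 h against 43 without it, and 43 against 40 at 24 h. Same-numbered libraries deviated with correlations of -0.142 to 0.076 at 6 h and -0.092 to 0.272 at 24 h. Libraries with different numbers gave -0.15 to 0.204 at 6 h and -0.313 to 0.107 at 24 h. Whether the numbers pair the samples cannot be told from these values, as each group holds 3 libraries. Depth limits the genes near 0 in cells without LPS, where Slfn1 held 0 to 2 reads per library.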
